A study of Mus musculus with 51 samples.

Results

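The complement genes described here are the lectin pathway genes Mbl1, Mbl2, Masp1 and Masp2, the central component C3, and the terminal components C6, C8a, C8b, C8g and C9, in mouse hepatocytes and liver. The 10 genes were taken by name from the deposited expression matrix, which lists 33773 genes, and all 10 were found. Complement is a cascade of plasma proteins, most of them made by hepatocytes. In its lectin branch, mannose-binding lectins recognise sugars on microbes and the MASP proteases that travel with them cleave further components. The branches meet at C3, and cleavage of C5 then starts the terminal pathway, in which C6, C7, C8 and C9 join C5b in the membrane attack complex. C8 is itself built from alpha, beta and gamma chains, encoded by C8a, C8b and C8g.

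The study deleted FoxA genes, which encode forkhead transcription factors of the liver, and asked how adult hepatocytes change. Triple null libraries (n = 4) come from mice with loxP-flanked FoxA1 and FoxA2 alleles on a FoxA3-/- background. These mice received, at 8 weeks of age, an adeno-associated virus of serotype 8 in which the hepatocyte-specific Tbg promoter drives Cre recombinase. FoxA3 null libraries (n = 4) were taken to be the GFP virus controls that the series' design text describes, which no label states. On that reading both groups lack FoxA3 and received a virus at 8 weeks of age. FoxA1/A2 lox libraries (n = 3) carry the flanked alleles without deletion, and FoxA1/A2 Cre alfp libraries (n = 4) have FoxA1 and FoxA2 deleted with FoxA3 present. For the lox and Cre alfp groups no age or virus is given in the labels. The label of the latter puts alfp after Cre, where the triple null had the Tbg virus, and does not explain it. These 15 libraries are labelled hepatocytes. A separate set labelled liver holds 2 HNF4a control libraries and 4 libraries labelled HNF4a null, depleted in adult liver by a means that is not given in the sources used here. No label says whether the replicates of a group are separate animals, so p-values measure the spread between libraries, which may be technical.

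Levels are RPKM, reads scaled by gene length and by the library's mapped reads, and so can be compared between genes. The number of reads behind a library is unknown, and relative depth ran from 2.01 to 4.07 in hepatocyte libraries and from 1 to 1.1 in liver libraries, with the shallowest library set to 1, read from the most common ratio of low values between libraries. Foxa2 averaged 0.366 ± 0.103 RPKM (SD, n = 4) in the triple null and 13.7 ± 4.58 (n = 4) in FoxA3 null, Foxa1 3.28 ± 0.283 and 8.50 ± 1.85, and Foxa3 stayed at or under 0.0114 RPKM in all libraries of both groups. In Cre alfp, Foxa1 averaged 1.24 ± 0.0999 RPKM and Foxa2 1.09 ± 0.127 (n = 4), against 6.72 ± 1.81 and 12.5 ± 6.26 in lox (n = 3). Hnf4a RNA went against its label. It ran from 487 to 545 RPKM where the label says HNF4a null and from 118 to 126 in the HNF4a controls, and since the deleted exons are not given, this value for the whole gene does not check the deletion. The summed level of 10 hepatocyte markers was 53570 to 74929 RPKM in lox, Cre alfp and FoxA3 null, and 44527 to 54298 in the triple null, where 6 of the 10 were called lower than in FoxA3 null, by the rule given below, against 3.95% of all tested genes. Neutrophil markers summed to 9.51 to 111 RPKM in the triple null and 0.786 to 1.87 in FoxA3 null, with their defining marker Ly6g listed at 0 in every library. Endothelial markers summed to 12.8 to 24.9 RPKM in the triple null and 38.0 to 60.6 in FoxA3 null, and erythroid markers to 5.94 to 21.7 and 33.0 to 47.3. Between Cre alfp and lox, erythroid markers summed to 14.9 to 29.2 against 81.4 to 90.8 RPKM and neutrophil markers to 1.43 to 3.61 against 0.859 to 1.40, while the hepatocyte, endothelial, stellate, macrophage, cholangiocyte and lymphocyte sums overlapped. The part of these shifts in the results below was not tested, and in bulk RNA fewer hepatocytes and less RNA per hepatocyte cannot be told apart.

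These genes differed widely in their response to deletion of FoxA1 and FoxA2 in FoxA3 null hepatocytes. C8b, Mbl2, C6 and Masp1 were lower in the triple null, C8b by the widest margin at 1.43% ± 0.0857 (SD, n = 4) of the FoxA3 null mean, while C8a, C8g, C9, Mbl1, Masp2 and C3 were not called. A gene was called when its adjusted p was under 0.05 and its difference in log2(RPKM + 1) was at least 1 in size, in limma with Benjamini-Hochberg adjustment over all 11500 genes tested. All 10 genes passed the minimum level for testing, and 4 were called, all of them lower, where 8.11% of all tested genes were called and 3.95% called lower. The libraries of the groups did not overlap for 6 of the 10 genes, against 27.9% of all tested genes. The median difference was -0.46 over the 10 genes and 0.05 over all genes tested. With no minimum difference, the adjusted p alone passed 5 of the 10 and 29.7% of all genes.

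**Figure D1:**
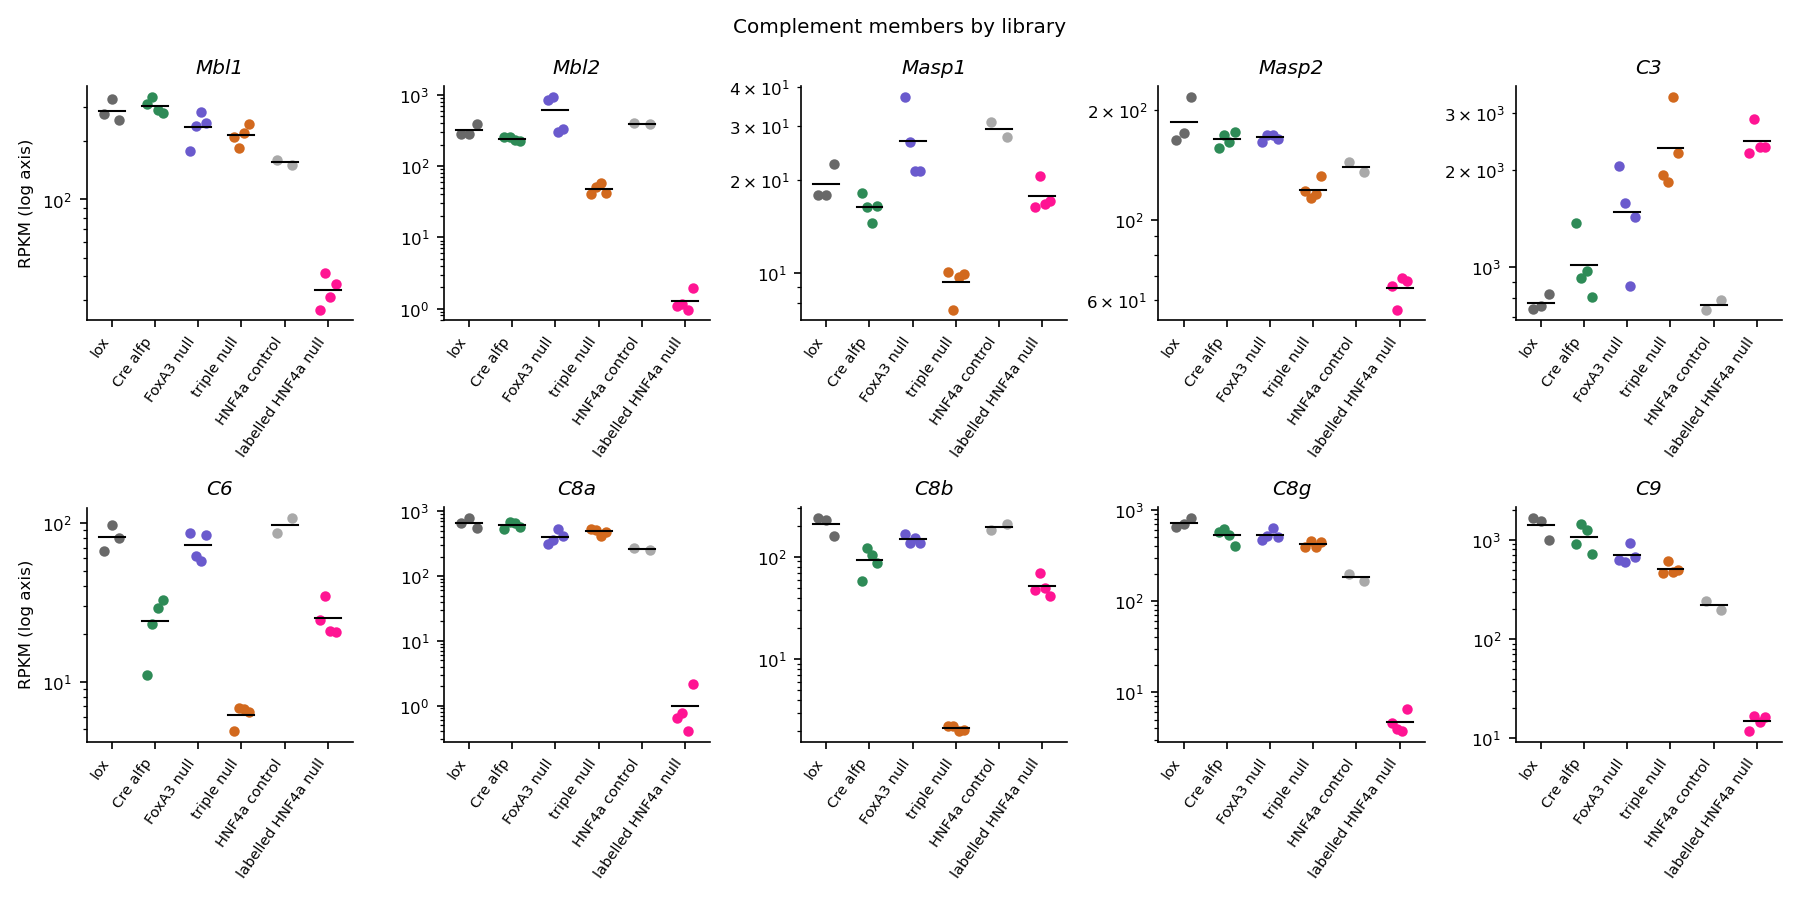
RPKM of each of the 10 complement genes in every RNA library (log axis, 1 point per library), by group, with the group mean as a bar. C8b lies near 2 RPKM in the 4 triple null libraries while C8a stays above 400 there, and in the libraries labelled HNF4a null C8a lies at or under 2.17 RPKM while C8b stays above 41.

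The contrast was plainest within the C8 complex itself. C8b and C8a are neighbours on mouse chromosome 4, do not overlap, and are transcribed toward each other from opposite strands, and their start windows are shown because the data set these neighbours apart. Each window runs from 250 bases before the start site to 50 after it, read 5′ to 3′ on the gene's strand from RefSeq (GRCm38.p6), C8b at chr4:104766067-104766366 on the plus strand and C8a at chr4:104876349-104876648 on the minus strand. Capitals mark matches to TGTTTGC, a core of the forkhead motif:
C8b: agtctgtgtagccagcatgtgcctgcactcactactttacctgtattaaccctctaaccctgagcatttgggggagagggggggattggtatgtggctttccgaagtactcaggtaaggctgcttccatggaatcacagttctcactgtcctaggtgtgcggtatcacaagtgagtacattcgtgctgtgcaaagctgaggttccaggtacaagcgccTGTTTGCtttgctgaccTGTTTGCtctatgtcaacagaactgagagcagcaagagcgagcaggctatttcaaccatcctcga
C8a: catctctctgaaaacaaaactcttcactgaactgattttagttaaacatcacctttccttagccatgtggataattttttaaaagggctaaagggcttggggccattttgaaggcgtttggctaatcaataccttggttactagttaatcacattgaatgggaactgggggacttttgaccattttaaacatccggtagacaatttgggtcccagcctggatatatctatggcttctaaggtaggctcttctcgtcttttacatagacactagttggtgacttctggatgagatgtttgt
The C8b window holds 2 matches on the gene's strand, at -32 to -26 and at -15 to -9 from the start site, and the C8a window holds none. TGTTTGC on either strand is found in 5.07% of all 32851 promoter windows in the RefSeq table, and 0.231% of them (76 windows) hold 2 or more. A match is a run of letters and not a measured binding site. Forms of the forkhead motif such as TGTTTGT, with which the C8a window ends, were not searched for.

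C8b encodes the C8 beta chain, which joins C8 to the growing complex. Its 4 FoxA3 null libraries gave 168, 137, 152 and 137 RPKM, and its 4 triple null libraries gave 2.24, 2.22, 1.98 and 2.06 RPKM. All triple null libraries lay far below every other library of the series, and they differed little from each other. The difference was -5.57 on the log2 scale (SE 0.19, limma adjusted p = 5.67e-11).

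C8a encodes the alpha chain, which enters the membrane. It was at 309, 368, 531 and 416 RPKM in FoxA3 null against 538, 521, 418 and 485 RPKM after the triple loss. The groups overlapped, and the difference of 0.29 (SE 0.16) was not called (limma adjusted p = 0.192). C8g, the gamma chain, a small lipocalin bound to the alpha chain, gave 471, 519, 630 and 501 RPKM in FoxA3 null and 392, 456, 388 and 449 RPKM in the triple null. Every triple null library was under the lowest FoxA3 null library, but the difference of -0.33 (SE 0.14) did not pass (limma adjusted p = 0.0973). C8g overlaps Fbxw5 in the RefSeq gene table, and reads of overlapping genes cannot be assigned with certainty where strand was not used. Fbxw5 itself averaged 14.5 RPKM in triple null libraries and 15.0 in FoxA3 null. C8a overlaps Fyb2, listed in the matrix under the older symbol 1700024P16Rik, which averaged 4.25 RPKM in triple null libraries and 2.00 in FoxA3 null (difference 0.79, not called, limma adjusted p = 0.00759).

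Set against C8a within the same library, C8b stood at 38.2% ± 11.2 (SD, n = 4) in FoxA3 null and at 0.435% ± 0.0263 (n = 4) in the triple null. The ratio ranged from 28.7% to 54.3% in the former and from 0.417% to 0.474% in the latter. On the log2 scale the gap between C8b and C8a differed by -5.87 between the groups and that between C8b and C8g by -5.25. These and the other gaps between genes given here were chosen with such differences already known, and are a description.

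**Figure D2:**
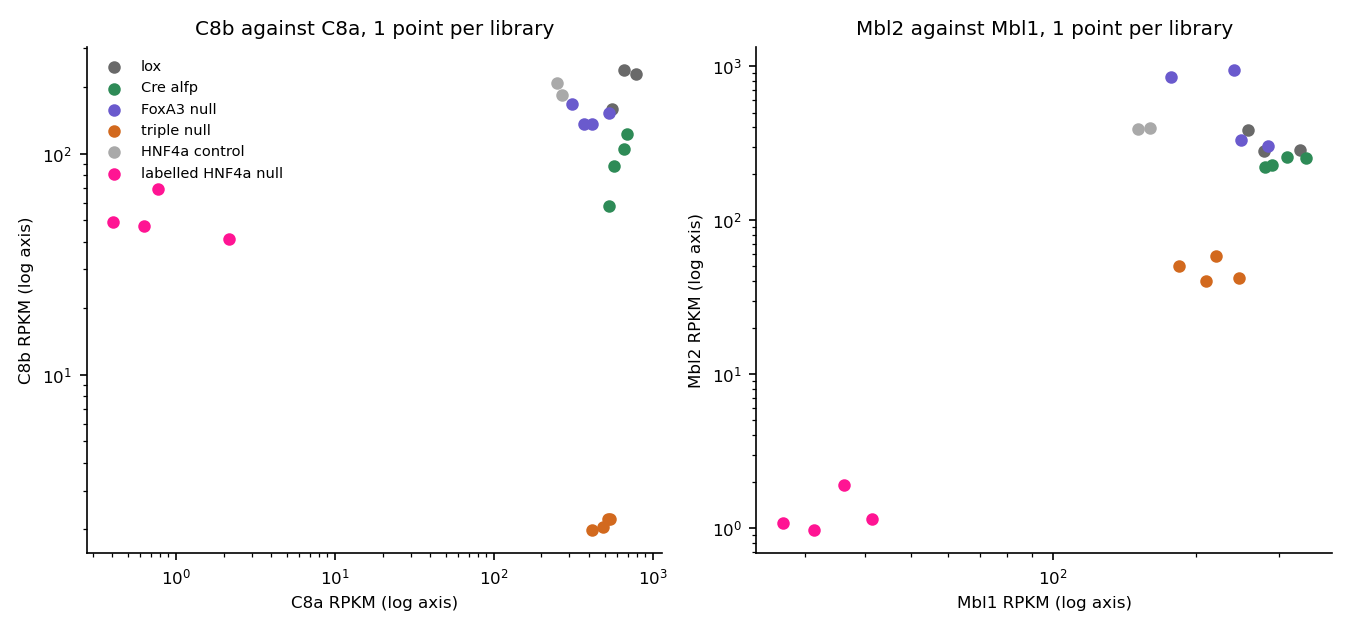
C8b against C8a (left) and Mbl2 against Mbl1 (right), RPKM on log axes, 1 point per library and coloured by group. The triple null libraries drop along the vertical axes, to 1.98 to 2.24 RPKM for C8b and 40.2 to 58.4 for Mbl2, and the libraries labelled HNF4a null move left for C8a, to 0.402 to 2.17 RPKM.

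C6 binds C5b at the first step of membrane attack. It fell from 87.0, 61.7, 57.4 and 83.6 RPKM in FoxA3 null to 4.88, 6.84, 6.70 and 6.41 RPKM in the triple null, without overlap. The difference was -3.33 (SE 0.27, limma adjusted p = 5.03e-07), and the triple null kept 8.57% ± 1.25 of the FoxA3 null mean. C9, whose copies form the wall of the pore, was at 623, 601, 919 and 672 RPKM in FoxA3 null against 462, 615, 472 and 496 RPKM in triple null libraries. The second triple null library lay within the FoxA3 null range, and the difference of -0.45 (SE 0.22) was not called (limma adjusted p = 0.146). The gap between C9 and C6 on the log2 scale was 2.89 wider in the triple null.

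The mannose-binding lectins, paralogs that recognise the same kinds of sugar, also parted. Mbl2, encoding mannose-binding lectin C, gave 846, 945, 304 and 332 RPKM in FoxA3 null and 40.2, 50.3, 58.4 and 42.1 RPKM in the triple null. FoxA3 null libraries 1 and 2 stood well above libraries 3 and 4, yet the lowest of them was still well above every triple null library. The difference was -3.47 (SE 0.31, limma adjusted p = 1.55e-06), with 7.87% ± 1.38 of the FoxA3 null mean remaining. Mbl1, encoding mannose-binding lectin A, was at 177, 240.1, 284 and 249 RPKM in FoxA3 null against 210.3, 184, 220 and 246 RPKM in triple null libraries. The groups overlapped almost wholly (difference -0.13, SE 0.14, limma adjusted p = 0.529). Mbl2 amounted to 278% ± 185 of Mbl1 in FoxA3 null but only 22.5% ± 5.15 in the triple null (n = 4 each), and the gap between them on the log2 scale changed by -3.34.

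The start windows of the mannose-binding lectin genes are shown because these paralogs share sequence there and yet differed in response. They come from the same RefSeq table, Mbl1 at chr14:41151206-41151505 and Mbl2 at chr19:30232678-30232977, both on the plus strand of GRCm38.p6. Capitals mark the longest stretch the windows share with at most 2 mismatches, 27 bases of which 25 are identical:
Mbl1: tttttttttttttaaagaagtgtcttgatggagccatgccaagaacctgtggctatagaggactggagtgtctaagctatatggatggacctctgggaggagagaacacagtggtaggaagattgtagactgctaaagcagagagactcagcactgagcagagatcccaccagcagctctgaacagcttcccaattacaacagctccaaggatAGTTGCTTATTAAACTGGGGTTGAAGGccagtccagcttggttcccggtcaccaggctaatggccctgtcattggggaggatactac
Mbl2: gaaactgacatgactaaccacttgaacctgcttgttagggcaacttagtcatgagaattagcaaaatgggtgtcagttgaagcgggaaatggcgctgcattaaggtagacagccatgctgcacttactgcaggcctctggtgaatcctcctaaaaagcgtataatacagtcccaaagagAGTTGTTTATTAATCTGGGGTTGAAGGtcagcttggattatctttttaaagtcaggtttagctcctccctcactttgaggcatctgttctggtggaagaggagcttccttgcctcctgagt
The stretch lies at -37 to -11 in Mbl1 and at -71 to -45 in Mbl2. Neither window holds either of the forkhead motifs searched, TNTTTAC (in 12.4% of all windows) and TGTTTGC. Other forms of the forkhead motif, such as TGTTTAT in the marked Mbl2 stretch, were not searched for.

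Windows were found for 9 of the 10 genes, all but Masp1. They were searched on both strands, with overlapping matches counted. TNTTTAC matched once in Masp2, at -135 to -129. The C/EBP motif TTNNGCAA, found in 10.8% of all windows, matched once in C3, at -45 to -38, and once in C9, at -132 to -125. The HNF4 motifs CAAAGTCCA (0.475% of all windows) and CAAAGGTCA (0.478%) and a palindromic HNF1 motif (0.14%) had no match in these windows. No motif searched matched in the windows of C6, C8a, C8g, Mbl1 or Mbl2.

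Of the proteases, Masp1 was called lower and Masp2 was not called. Masp1, whose products include MASP-1 and MASP-3 and which has 1 value for the whole gene here, was at 37.3, 26.6, 21.5 and 21.4 RPKM in FoxA3 null against 10.0, 7.60, 9.68 and 9.93 RPKM in triple null libraries. All triple null libraries were under all others of the series, and the difference of -1.40 (SE 0.16) was called (limma adjusted p = 1.88e-05). Masp2, the protease that cleaves C4 and C2, gave 164, 171, 171 and 167 RPKM in FoxA3 null and 120, 115, 117 and 132 RPKM in the triple null. The groups did not overlap and the difference of -0.48 (SE 0.10) had a limma adjusted p of 0.00202, but its size was under the minimum of 1. The gap between Masp1 and Masp2 changed by -0.92 on the log2 scale. Masp1 overlaps Rtp4 and Masp2 overlaps Tardbp in the RefSeq gene table; neither Rtp4 (difference -0.13) nor Tardbp (0.17) was called in this comparison.

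C3, on which every branch of complement converges, had the highest mean of the 10 in both groups, although its range overlapped those of C9 and Mbl2 in FoxA3 null. C3 was at 2053, 1584, 874 and 1427 RPKM in FoxA3 null and 1927, 1832, 3375 and 2250 RPKM in the triple null. The groups overlapped, and the difference of 0.68 (SE 0.25) was under the minimum of 1 and was not called (limma adjusted p = 0.0529). Of 18 acute phase genes, whose liver expression responds to inflammation, 13 were called in the same comparison, 8 higher and 5 lower, where 8.11% of all genes were. Saa1 rose by 3.60 on the log2 scale and Lcn2 by 5.21, while Hp fell by 2.70 and Serpina3n fell by 5.02 (limma adjusted p from 8.27e-09 to 0.000435 for these 4). The part of an acute phase response in the C3 values was not tested.

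Where FoxA3 was present, C6 and C8b were the 2 of the 10 genes called after deletion of FoxA1 and FoxA2, both lower. These calls compare with 2.38% of all tested genes called and 1.1% called lower, and the libraries did not overlap for 4 of the 10 genes against 19.9% of all. With no minimum difference the same 2 passed, and 5.46% of all genes. C6 fell from 66.2, 96.9 and 80.6 RPKM in lox to 10.9, 23.1, 29.1 and 32.9 RPKM in Cre alfp, a difference of -1.80 (SE 0.29, limma adjusted p = 0.00207). All Cre alfp libraries lay below all lox libraries, with 29.6% ± 11.8 of the lox mean remaining. C8b fell from 239, 228 and 160 RPKM in lox to 58.0, 123, 105 and 87.6 RPKM in Cre alfp, again without overlap (difference -1.18, SE 0.21, limma adjusted p = 0.00427). This call was lost without Cre alfp library 1, where the difference was -0.97, and with only these 2 groups in the fit (limma adjusted p = 0.0588).

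The other 8 genes were not called between Cre alfp and lox. Mbl2 was at 281, 287 and 387 RPKM in lox and at 258, 253, 230 and 223 RPKM in Cre alfp. These groups did not overlap, and the difference of -0.39 (SE 0.34) was not called (limma adjusted p = 0.613). Masp1 was at 17.9, 17.8 and 22.6 RPKM in lox and at 18.1, 16.4, 14.5 and 16.5 RPKM in Cre alfp, which overlapped (difference -0.23, SE 0.17, limma adjusted p = 0.541). C8a ranged from 557 to 786 RPKM in lox and from 534 to 692 in Cre alfp, and C8g from 645 to 814 and from 400.1 to 624. C9 spanned 989 to 1645 RPKM in lox and 716 to 1425 in Cre alfp, Mbl1 257 to 331 and 279 to 341, Masp2 165 to 218 and 158 to 174, and C3 739 to 822 and 808 to 1366. None of these 6 was called, with differences between -0.46 for C8g and 0.37 for C3.

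The question whether FoxA1/A2 deletion acted differently in the absence of FoxA3 was put to the interaction, the difference between triple null and FoxA3 null less that between Cre alfp and lox. The interaction shares its triple null and FoxA3 null libraries with the first comparison. C8b, Mbl2, C6 and Masp1 were called, all with a further loss in the FoxA3-deficient background, where 6.82% of all tested genes were called and 3.54% called with a negative value. C8b changed by a further -4.39 (SE 0.28, limma adjusted p = 1.92e-07) and Mbl2 by a further -3.08 (SE 0.46, limma adjusted p = 0.000532). C6 differed by -1.53 (SE 0.39, limma adjusted p = 0.0192), a call lost without lox library 1 (-1.39, limma adjusted p = 0.0588) and without the minimum level (limma adjusted p = 0.0539). Masp1 differed by -1.17 (SE 0.24, limma adjusted p = 0.00536), and by -0.998, just under the minimum, without FoxA3 null library 1. The labels give no virus or age for lox and Cre alfp, so FoxA3 status cannot be told apart from any difference in virus, age or the way FoxA1 and FoxA2 were deleted. Foxa1 averaged 3.28 RPKM in the triple null and 1.24 in Cre alfp, and Foxa2 averaged 0.366 and 1.09. The part of these differences in the interaction was not tested.

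Comparisons across the FoxA3 divide shared the triple null libraries, and in them the median of all genes moved by 0.13 against lox and 0.13 against Cre alfp. Wherever a difference is given relative to the median gene, its call, SE and adjusted p are those of the difference before centring. Against lox, 5 of the 10 genes were called where 13.5% of all genes were (5.81% lower and 7.72% higher), and none of the 10 overlapped between groups where 46.3% of all genes did not. Relative to the median gene the called differences were -6.18 for C8b, -3.64 for C6, -2.84 for Mbl2, -1.55 for C9 and 1.43 for C3 (limma adjusted p from 3.54e-11 to 0.000424). Against Cre alfp, 5 were called where 10.3% of all genes were (5.03% lower and 5.26% higher), and 8 of the 10 did not overlap where 39.6% of all genes did not. Relative to the median gene these were -4.99 for C8b, -2.45 for Mbl2, -1.83 for C6, -1.15 for C9 and 1.06 for C3 (limma adjusted p from 1.71e-10 to 0.0025). The C9 call against Cre alfp was lost without Cre alfp library 2 (-0.87) or 3 (-0.93) and without triple null library 1 (-0.98) or 3 (-0.99), and under quantile normalization (-0.98), all before this centring. With no minimum difference, 9 of the 10 passed against lox and 8 against Cre alfp, where 42.5% and 41.2% of all genes did. C8b thus stood at 1.02% ± 0.0609 of the lox mean and 2.27% ± 0.136 of the Cre alfp mean.

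FoxA3 null hepatocytes compared with lox gave no call among the 10 genes, where 7.19% of all genes were called. The libraries did not overlap for 4 of the 10 genes, against 40.1% of all genes. By limma with Benjamini-Hochberg adjustment, 4 genes nonetheless had an adjusted p under 0.05 with a difference below the minimum of 1: C9 at -0.97 (adjusted p = 0.00883), C8a at -0.73 (0.00764), C8g at -0.44 (0.0377) and C3 at 0.88 (0.0228), before the median gene's shift of 0.10 is taken off. An adjusted p under 0.05 alone was reached by 34.8% of all genes there. Without FoxA3 null library 3, 3 genes were called, C9 lower and C3 (1.11) and Mbl2 (1.03) higher, and without lox library 3 C9 alone was called (-1.20). FoxA3 null library 3 had Mbl2 at 304 RPKM and C3 at 874, the lowest of its group, and C9 at 919, the highest.

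**Figure D3:**
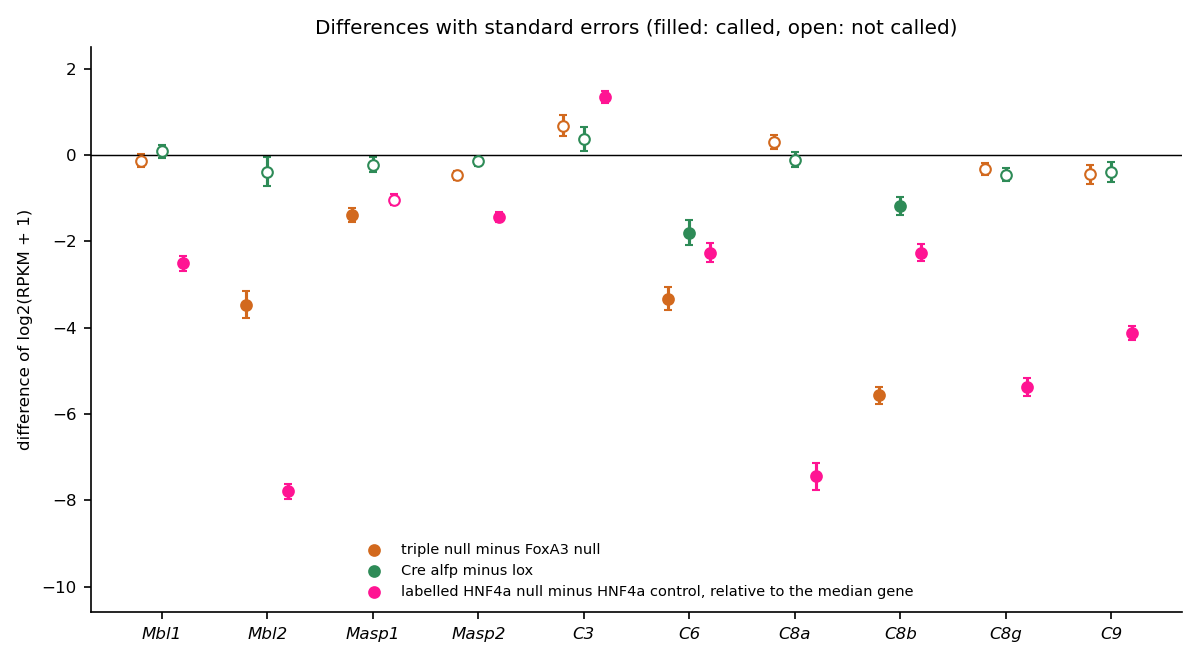
Difference in log2(RPKM + 1) with its standard error for each gene in 3 comparisons, with filled symbols for called genes and open symbols for the others; the liver comparison is drawn relative to the median gene. C8b is lowest in the triple null, at -5.57, and C8a and Mbl2 are lowest in the libraries labelled HNF4a null, at -7.45 and -7.79.

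In the liver libraries labelled HNF4a null, 8 of the 10 genes were lower than in HNF4a control and C3 was higher, and the division within C8 ran the other way. HNF4a is a nuclear receptor of hepatocytes with many secreted liver proteins among its targets. These 9 calls compare with 14.5% of 12434 tested genes called, 5.95% lower and 8.58% higher. None of the 10 genes overlapped between the groups, nor did 67% of all genes, and the median gene was 0.34 higher on the log2 scale, so differences are given relative to it. With no minimum difference all 10 passed, as did 52.8% of all genes. The hepatocyte marker sum was 40130 to 41015 RPKM in the controls but 19873 to 25112 in those labelled HNF4a null, and cholangiocyte markers summed to 16.7 to 17.0 against 132 to 230 RPKM, in the same order. Macrophage (123 to 130 against 143 to 191 RPKM), endothelial (198 to 221 against 250 to 269), stellate (148 to 159 against 172 to 190) and neutrophil markers (1.15 to 2.11 against 3.32 to 15.2) were also higher in sum without overlap. The part of these shifts in the values below was not tested.

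C8a was at 271 and 251 RPKM in HNF4a control and, in those labelled HNF4a null, at 0.631, 0.769, 0.402 and 2.17 RPKM. Only the last of these reached the 1 RPKM minimum, so C8a entered the test through the controls. It kept 0.380% ± 0.306 (SD, n = 4) of their mean. That last library raised this share, as the group's mean was 0.992 RPKM and its median 0.700. The relative difference was -7.45 (SE 0.31, limma adjusted p = 1.06e-05). Its overlapping neighbour Fyb2 averaged 3.35 RPKM in control and 0.406 RPKM in those labelled HNF4a null, and like C8a entered the test through the controls. C8g fell with it, from 199 and 168 RPKM to 4.63, 3.90, 3.73 and 6.51 RPKM (relative difference -5.38, SE 0.20, limma adjusted p = 7.80e-06). C8b, by contrast, was at 183 and 209 RPKM in control and kept 47.0, 69.2, 49.3 and 41.2 RPKM, or 26.3% ± 6.21 of the control mean (relative difference -2.27, SE 0.20, limma adjusted p = 0.00048). C8b was 67.8% and 83.3% of C8a in the 2 control libraries, and from 1899% to 12247% of it in the 4 libraries labelled HNF4a null.

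Among the lectins, Mbl2 dropped from 397 and 391 RPKM to 1.08, 1.15, 0.965 and 1.92 RPKM, the largest difference of the 10 genes (relative difference -7.79, SE 0.17, limma adjusted p = 8.77e-07). Mbl1 fell from 160 and 151 RPKM to 26.9, 41.5, 31.3 and 36.2 RPKM (relative difference -2.52, SE 0.17, limma adjusted p = 0.000153). Mbl2 went from 254% ± 8.29 (n = 2) of Mbl1 in control to 3.78% ± 1.13 (n = 4), so that of this pair Mbl2 was the lower in the libraries labelled HNF4a null as it was in the triple null.

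Masp2 fell from 144 and 135 RPKM to 65.5, 56.5, 69.1 and 67.8 RPKM (relative difference -1.44, SE 0.11, limma adjusted p = 0.000388). Its overlapping neighbour Tardbp rose in the same comparison, by 1.16 before centring, to a mean of 55.7 RPKM. Masp1 was at 30.8 and 27.7 RPKM in control and, in those labelled HNF4a null, at 16.4, 20.6, 16.7 and 17.1 RPKM. It was not called, with a difference of -0.70 (SE 0.12, limma adjusted p = 0.00341) before centring and -1.03 relative to the median gene.

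C9 fell from 242 and 198 RPKM to 11.8, 16.9, 14.7 and 16.3 RPKM (relative difference -4.13, SE 0.16, limma adjusted p = 9.95e-06). C6 fell from 86.7 and 107 RPKM to 24.4, 34.5, 20.7 and 20.6 RPKM (relative difference -2.27, SE 0.22, limma adjusted p = 0.000689). The groups were far apart for both genes. C3 alone rose, from 738 and 792 RPKM to 2265, 2886, 2349 and 2359 RPKM (relative difference 1.34, SE 0.14, limma adjusted p = 0.000196), and all 4 libraries exceeded both controls. Of the 18 acute phase genes, 12 were called here, 6 in each direction, where 14.5% of all genes were.

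The order of levels across groups sums up these patterns, with liver and hepatocyte libraries being different material. C8b averaged 209 ± 42.7 RPKM in lox, 196 ± 18.4 in HNF4a control, 148 ± 15.0 in FoxA3 null, 93.5 ± 27.8 in Cre alfp, 51.6 ± 12.2 in the libraries labelled HNF4a null and 2.13 ± 0.127 in the triple null. Neighbours in this order overlapped between lox and HNF4a control and between Cre alfp and the libraries labelled HNF4a null, and otherwise did not. C6 ran from 97.0 ± 14.6 RPKM in HNF4a control through 81.2 ± 15.3 in lox and 72.4 ± 15.1 in FoxA3 null, all overlapping, to 25.1 ± 6.53 in the libraries labelled HNF4a null and 24.0 ± 9.59 in Cre alfp, which also overlapped, and 6.21 ± 0.902 in the triple null. Mbl2 was highest in FoxA3 null at 607 ± 336 RPKM, overlapping HNF4a control at 394 ± 4.10, then followed by lox at 318 ± 60.0, Cre alfp at 241 ± 17.1, the triple null at 47.8 ± 8.35 and the libraries labelled HNF4a null at 1.28 ± 0.433. Masp1 ran from 29.2 ± 2.23 RPKM in HNF4a control to 9.31 ± 1.15 in the triple null, and each of its neighbours overlapped except that last step from Cre alfp at 16.4 ± 1.48.

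C8a and C8g shared an order in part. C8a ran from 667 ± 115 RPKM in lox through 615 ± 74.1 in Cre alfp, 490 ± 53.2 in triple null and 406 ± 94.0 in FoxA3 null, each overlapping the next, to 261 ± 13.7 in HNF4a control and 0.992 ± 0.798 in the libraries labelled HNF4a null. C8g stood at 720 ± 86.0 RPKM in lox, at 530 ± 69.4 in FoxA3 null, 529 ± 95.0 in Cre alfp and 421 ± 36.1 in the triple null. FoxA3 null overlapped Cre alfp and Cre alfp overlapped the triple null. HNF4a control followed at 184 ± 21.8 RPKM and the libraries labelled HNF4a null at 4.69 ± 1.27. C9 ran from 1389 ± 351 RPKM in lox to 511 ± 70.4 in the triple null, each hepatocyte group overlapping the next, and was at 220 ± 31.2 and 14.9 ± 2.29 in the liver groups. C3 was highest in the libraries labelled HNF4a null at 2465 ± 284 RPKM and the triple null at 2346 ± 709, and lowest in lox at 773 ± 43.7 and HNF4a control at 765 ± 38.0, with each group overlapping the next. Masp2 and Mbl1 were both lowest in the libraries labelled HNF4a null, at 64.7 ± 5.68 and 34.0 ± 6.31 RPKM.

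The rest of the complement system was read from a list of 43 genes, of which 29 had enough RNA to be tested in hepatocytes and 33 in liver. Between triple null and FoxA3 null, 9 of the 29 were called, 8 lower and 1 higher, where 8.11% of all genes were called, and the median was -0.45 for the list and 0.05 for all genes. Vtn encodes vitronectin, a plasma protein that blocks the assembling membrane attack complex. It went from 2192 ± 628 to 15.1 ± 2.23 RPKM (n = 4 each), a difference of -7.05 (SE 0.18, limma adjusted p = 3.19e-12). C4bp, a soluble inhibitor that binds C4b, went from 287 ± 78.2 to 9.09 ± 3.85 RPKM (difference -4.87, SE 0.26, limma adjusted p = 6.27e-09). C1s, a protease of the classical pathway, went from 158 ± 31.5 to 16.7 ± 4.69 RPKM (difference -3.18, SE 0.31, limma adjusted p = 3.67e-06). Hc, which encodes C5, the first terminal component, went from 387 ± 57.5 to 71.4 ± 10.2 RPKM (difference -2.42, SE 0.13, limma adjusted p = 8.82e-09).

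By role, the called genes were 4 of 10 soluble regulators, 2 of 8 tested classical pathway genes, 1 of 3 tested lectin recognition genes, the only terminal component tested (Hc) and 1 of 4 tested membrane regulators. Neither tested alternative pathway gene was called. Chosen after their values were seen, the other lower genes were Cfhr3, C1ra, Cfi and Colec11, with differences from -2.34 to -1.25, and the higher one was Cd59a (1.05), a membrane inhibitor of C9 insertion. Cfhr3 lay under 1 RPKM in all triple null libraries and entered the test through other groups, and its reads may be shared with near-identical copies. C7, the remaining terminal component, stayed at or under 0.0153 RPKM in every hepatocyte library.

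Hc was lower in the double deletion too. Its mean was 670 ± 44.1 RPKM for 3 lox libraries and 179 ± 21.6 for 4 Cre alfp libraries, a difference of -1.90 (SE 0.14, limma adjusted p = 2.91e-06), and its interaction of -0.52 was not called (limma adjusted p = 0.0934). Cfhr3, at -1.19 (limma adjusted p = 0.0416) and with overlapping libraries, was the other gene of the list called there, so 2 of 29 were called where 2.38% of all genes were. Its call was lost without any 1 of 6 of the 7 libraries compared. In the interaction 6 of 29 were called, where 6.82% of all genes were, led by Vtn (-6.81) and C4bp (-4.30). Against lox and against Cre alfp, 9 and 8 of 29 were called in the triple null, where 13.5% and 10.3% of all genes were, with Vtn (-7.98 and -7.74 relative to the median gene) and C1s (-4.24 and -3.90) the furthest from 0. Between FoxA3 null and lox only C4a was called, at -1.76 relative to the median gene (limma adjusted p = 0.0482), where 7.19% of all genes were called. C4a ranged from 64.7 to 398 RPKM in lox. Its call was lost without any 1 of 6 of the 7 libraries compared, and without lox library 3 the difference was -0.97 relative to the median gene (limma adjusted p = 0.232). C4a may also share reads with its near-copy C4b.

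In liver, 13 of 33 tested genes of the list were called, 12 lower and 1 higher in the libraries labelled HNF4a null, where 14.5% of all genes were called, and the called genes included 7 of the 10 soluble regulators tested, 6 lower and 1 higher. Of the lower genes, Cfd and Cfhr3 lay under 1 RPKM in all libraries labelled HNF4a null and entered the test through the 2 controls, and neither was tested without either control. C4bp went from 437 ± 30.1 (n = 2) to 79.6 ± 14.6 RPKM (n = 4), a relative difference of -2.79 (SE 0.18, limma adjusted p = 0.000104). Cpn2, a subunit of the carboxypeptidase that inactivates complement anaphylatoxins, differed by -3.32, Cfi, the protease that degrades C3b and C4b, by -3.17 and Vtn by -3.10 relative to the median gene (limma adjusted p from 0.000233 to 0.000856). Chosen after its values were seen, the higher gene was Clu (1.77 relative to the median gene, limma adjusted p = 0.00137), which encodes clusterin. Hc, at -1.30 relative to the median gene, was not called there. Its difference before centring was under the minimum of 1 in size.

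**Figure D4:**
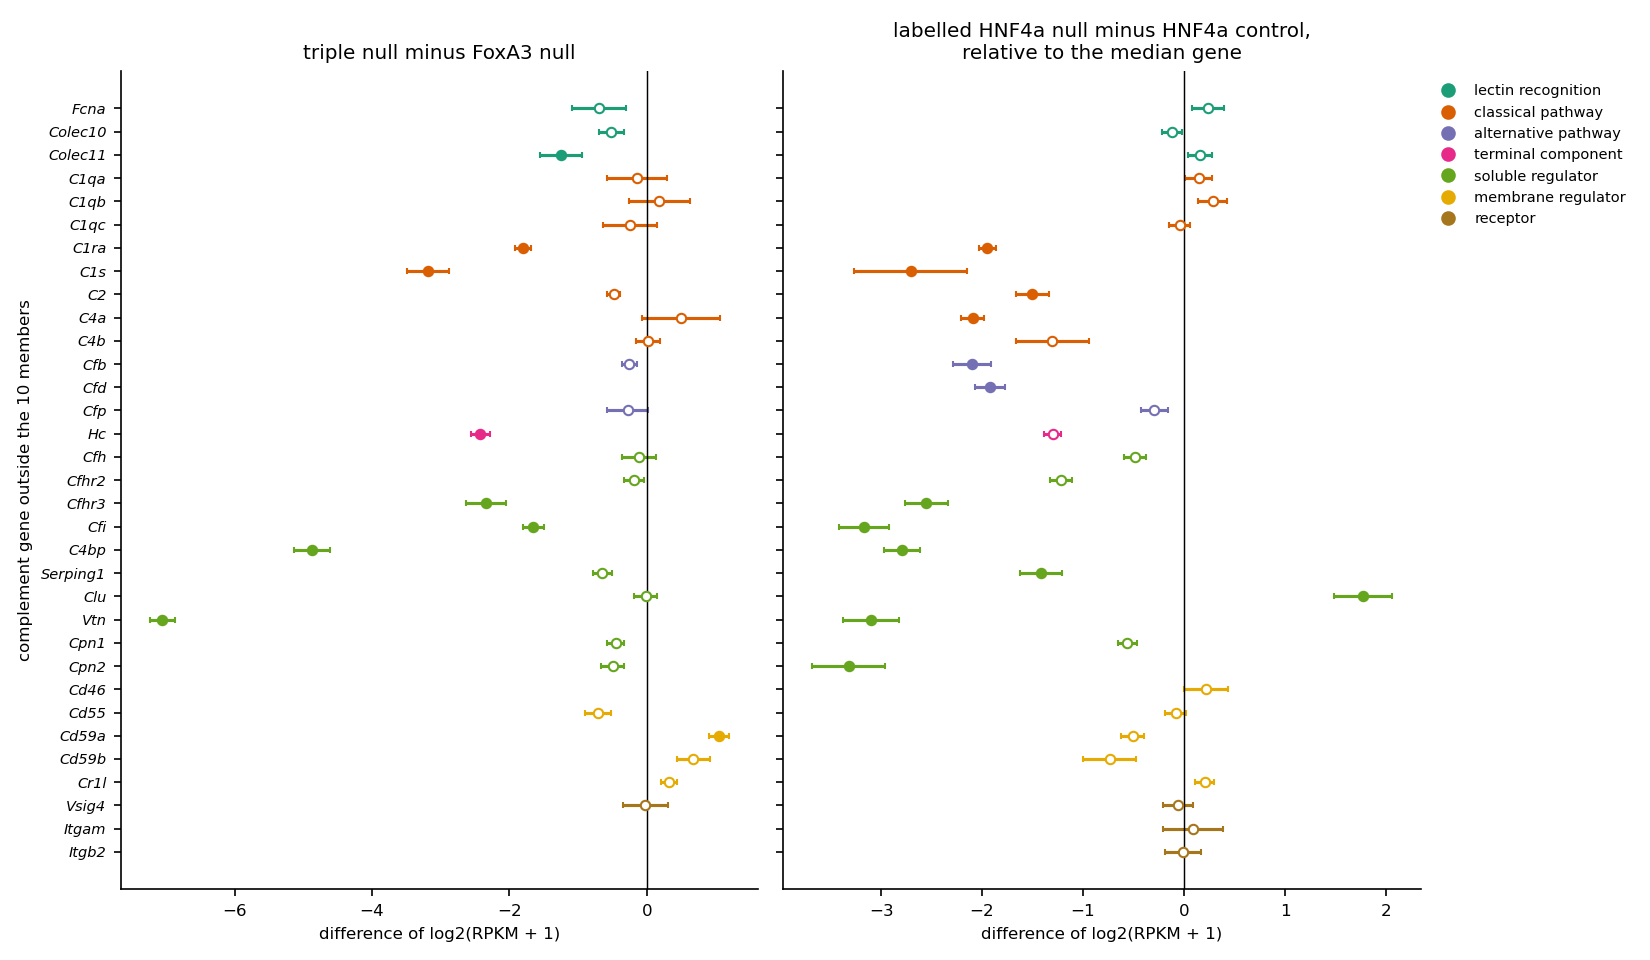
Difference in log2(RPKM + 1) with its standard error for the other complement genes with enough RNA, coloured by role, for triple null minus FoxA3 null (left) and for the liver comparison relative to the median gene (right); filled symbols are called. Vtn is lowest on the left, at -7.05, and Cpn2 on the right, at -3.32.

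The genes most like the called members over the 15 hepatocyte libraries, by Pearson's r of log2(RPKM + 1) among 7774 genes, are a description, since libraries of a group share their genotype. For C8b these were Mup3 (r = 0.996) and Apoa1 (0.994), for Mbl2 Slc26a1 (0.981) and C4bp (0.970), for C6 Gstm2 (0.976) and Aox1 (0.971), and for Masp1 Adh4 (0.966) and Slc25a23 (0.964). Mup3 belongs to a family of near-identical genes that may share reads. All 8 genes were called lower in the triple null than in FoxA3 null, Apoa1 by -5.23 and Aox1 by -1.92, where 3.95% of all tested genes were. They were chosen for likeness to members called lower, over libraries that include these groups, so this follows from the choice.

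The nearest protein-coding neighbours of the 10 genes were taken from the RefSeq gene table, used for names and order only. Apart from C8a and C8b, none of those tested was called between triple null and FoxA3 null, where 8.11% of all genes were. Several were too low to be tested, among them Plcxd3 and Mroh2b beside C6, Dkk1 beside Mbl2 and Dab1 beside C8b. Beside Mbl2, Gldc differed by 0.02 in that comparison, and by 1.14 (limma adjusted p = 0.000528) in the liver comparison before centring, where Mbl2 fell. Beside Masp2, Srm was lower in Cre alfp than in lox (-1.16, limma adjusted p = 0.0286), where Masp2 was not called.

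The study also set its data beside hepatoblasts and newborn hepatocytes, and the following values are those of the authors' deposited tables, whose adult libraries are not stated. Their sign was taken as named and could not be compared with a fit here. Afp, a fetal liver gene, was higher in hepatoblast (9.67, SE 0.32) and in newborn (14.19, SE 0.31) in these deposited tables. In the authors' deposited table of hepatoblast against adult hepatocytes, all 10 genes were lower at an adjusted p under 0.05, as were 37.9% of all 13473 genes in it. C6 was lowest there, at a log2 fold change of -7.12 (SE 1.11), and Masp1 least changed, at -1.76 (SE 0.23). C8b was at -4.35 (SE 0.50) and C8a at -5.26 (SE 0.41) in the same deposited table, so the 2 neighbours were low together in hepatoblasts. In the authors' deposited table of newborn against adult, 7 of the 10 were lower and 2 higher by the same rule, where 31.7% of all its genes were lower and 31.6% higher. C6 (-8.74, SE 0.37) and C9 (-4.24, SE 0.24) were furthest below the adult in that deposited table, and C3 (2.68, SE 0.17) and Masp1 (1.20, SE 0.20) were above it. C8a (-1.03) and C8b (-1.09) again stood side by side in the deposited newborn values, and Masp2 (0.05, adjusted p = 0.853) matched the adult most closely.

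**Figure D5:**
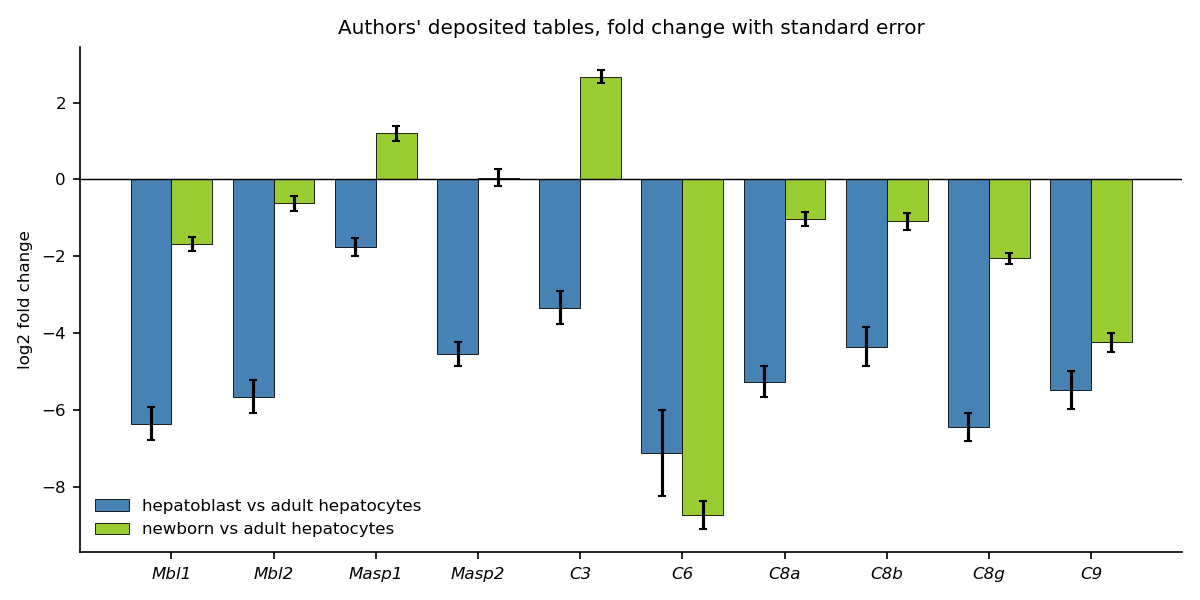
Log2 fold change with its standard error from the authors' deposited tables, for hepatoblast and newborn against adult hepatocytes, for each of the 10 genes. All hepatoblast bars point down, the newborn bars of C3 and Masp1 point up, and C6 is lowest in both, at -7.12 and -8.74.

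The authors' deposited table of triple null against FoxA3 null, which is built from the same libraries, gave 8 of the 10 genes lower and C3 higher at an adjusted p under 0.05, where 22.1% of all its genes were lower and 20.6% higher. C8b was at -6.31 (SE 0.14), Mbl2 at -3.72 (SE 0.33), C6 at -3.58 (SE 0.15) and Masp1 at -1.52 (SE 0.20) in that deposited table. It put C8a at -0.32 (SE 0.10, adjusted p = 0.00672), while the fit to the RPKM values here gave 0.29 without a call, so the sign for C8a depends on which values are used. In the authors' deposited table of the liver comparison 9 were lower and C3 higher, where 24.9% of all its genes were lower and 21.4% higher, with Mbl2 at -8.62 (SE 0.20), C8a at -8.49 (SE 0.81) and C8b at -2.36 (SE 0.15).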

How the data were processed

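RNA was measured by sequencing in 21 of the 51 samples of the series. The matrix that the authors deposited holds RPKM per gene, and their deposited comparison tables hold log2 fold changes with p-values. The submitters' processing notes name the build mm9 and the tools SAMtools, Cufflinks 2.2.1 and DESeq2, without their roles. The aligner, the annotation and the use of strand are not given in the sources used here. In 1 deposited table without adjusted values, p-values were adjusted here by Benjamini-Hochberg, and in another the sign was turned. The matrix has 9 further columns that belong to no sample here and were not used.

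Values were tested as log2(RPKM + 1) with limma 3.58.1 in R 4.3.3 (lmFit, eBayes with trend). Since these are not counts, no count model was used. The pseudocount of 1 understates changes of low genes. Hepatocytes (15 libraries, genes reaching 1 RPKM in 3 or more of them) and liver (6 libraries, 2 or more) were fitted apart, with no covariates. The scripts were tested on simulated data. Of the positive RPKM values, 2.9% are under 1e-06, so whole reads per gene were not recovered. Depth was compared between libraries only, by the most common ratio of a gene's values under 0.3 RPKM in each pair of libraries.

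An exact two-sided permutation test of the gap within 5 gene pairs gave p = 0.0286 for each, the smallest that 4 against 4 libraries can give. Each pair joins a called gene with one not called and was chosen with earlier results known, so nothing rests on it. The members, the other complement list and the marker and acute phase lists were chosen with earlier results of these data known. Named from the complement list are the 4 called genes with the largest difference in triple null minus FoxA3 null and in the liver comparison, and 2 in each other comparison. For each member called in the triple null, the 2 genes of highest correlation are named, and for each member the nearest protein-coding gene on each side. Alternatives were another pseudocount, other filters, median scaling, quantile normalization, only the groups compared, robust variance, no minimum difference, the replicate number as a block and leaving out each library. Peaks and chromatin data are not analysed here, and 1 gene each of the complement and marker lists is not reported here.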

Additional observations from a re-analysis of the deposited data

Results flagged for a closer look

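Among 40 sets of 4 libraries of 1 gene and group, 3 had a library far from the other 3, and about 1 in 20 would by chance. Masp1 was at 7.60 RPKM in triple null library 2, below the others of its group. The library labelled HNF4a null with barcode GGCTAC was above its group for both Masp1 (20.6 RPKM) and C3 (2886 RPKM).

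By the interaction test in limma, 10 of 39 tested complement genes were called, where 6.82% of all tested genes were. The interaction is the difference between triple null and FoxA3 null less that between Cre alfp and lox. In it, FoxA3 status cannot be told apart from any difference in virus, age or the way FoxA1 and FoxA2 were deleted. The interaction on the log2 scale was -4.39 for C8b, -3.08 for Mbl2, -1.53 for C6 and -1.17 for Masp1. Of the other complement genes, it was -6.81 for Vtn, -4.30 for C4bp, -2.85 for C1s, -1.50 for Colec11 and -1.43 for C1ra. The Colec11 call was lost without any 1 of 11 of the 15 libraries. Cd59a had the opposite sign, at 1.14.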

How the results depend on the processing

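The 4 members called lower in the triple null than in FoxA3 null kept their call and direction under all 18 alternatives, and the 9 called in liver under all 13, with no sign reversed for any called value. With no minimum difference, calls rose to 9 members and 16 other complement genes in the triple null against lox (42.5% of all genes), 8 and 15 against Cre alfp (41.2%), 16 other genes against FoxA3 null (29.7%), 4 members and 12 other genes between FoxA3 null and lox (34.8%), 4 other genes between Cre alfp and lox (5.46%), and 20 other genes in liver (52.8%). Between Cre alfp and lox the other genes called fell to 1 with a pseudocount of 0.1, with no filter and with only the 2 groups, and C8b lost its call with only the 2 groups, leaving 1 member. Between FoxA3 null and lox, median scaling gave 1 member (C9, -1.07) and 3 other genes, quantile normalization 2 other genes, and no filter, only the 2 groups or robust variance 0. The cause of these changes was not tested. Masp1, just short of the minimum between triple null and lox (-0.99), was called there under median scaling (-1.12), quantile normalization (-1.13) and a pseudocount of 0.1 (-1.05).

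Leaving out 1 library at a time gave 1 to 2 members and 1 to 2 other genes for Cre alfp minus lox, and 0 to 3 members and 0 to 2 other genes for FoxA3 null minus lox. Same-numbered libraries correlated from -0.36 to 0.0177 between triple null and FoxA3 null and from -0.203 to 0.116 between Cre alfp and lox. These few values gave no sign that replicate numbers pair the samples, but cannot exclude it. With the replicate number as a block, 4 members were still called in the triple null, 0 other genes between FoxA3 null and lox, and, in the fit of the 2 groups, 1 member (C6, not C8b at adjusted p = 0.184) between Cre alfp and lox. The liver columns carry no replicate number. With read depth unknown, the counting error of low values such as C8a in liver could not be given.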
